A study of Mus musculus with 17 samples.

Results

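Iron enters most cells as transferrin, the serum iron carrier, bound to the transferrin receptor, and surplus iron is held in ferritin, a shell built of heavy and light subunits. The genes described here encode the receptor (Tfrc), the ferritin heavy subunit (Fth1), the ferritin light subunit (Ftl1) and transferrin (Trf). Members were all probe sets that the platform's annotation gives to these 4 genes, and the 3 control probe sets for mouse transferrin receptor that the array carries. The rule gave 8 of 12488 probe sets: 5 for Tfrc, 2 of its own and 3 controls, 2 for Fth1 and 1 for Ftl1. No probe set was annotated to Trf, which was not analysed here. The genes were chosen by a rule on annotation, with their signals over the stages already known from these arrays, so their levels and differences are a description with no test.

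The study followed mouse development before implantation on Affymetrix MG-U74Av2 arrays, which read 1 sample each. The oocyte and 8-cell stages had 4 arrays each, and the 1-cell, 2-cell and blastocyst stages 3 each. The titles gave the stage and a number, and nothing on strain, age, treatment or the number of animals or embryos pooled, so p-values reflect just how much these samples vary, in part perhaps for technical reasons. All RNA had been amplified by in vitro transcription in 2 rounds. In such bulk samples, fewer cells of a type and less RNA per cell cannot be told apart.

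Cells short of iron stabilise the Tfrc messenger and hold back translation of the ferritin messengers through iron regulatory proteins that bind the messengers, and iron reverses both. Ferritin protein can therefore change while its messenger does not, and the arrays measured messengers alone. Ferritin heavy chain oxidises iron for storage, and the light chain helps to form the iron core.

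The stages were checked against marker genes. All 5 oocyte markers were above a signal of 41.1, the median of all values, on every oocyte array, and their summed signal was 24718 to 25857 there and 169 to 203 in blastocysts. All 4 measured 2-cell markers were above it on every 2-cell array, and 5 of 7 blastocyst markers on every blastocyst array. These counts separate neighbouring stages only in part. All 5 oocyte markers were also above it on every 1-cell and 2-cell array, and the same 5 blastocyst markers on every 8-cell array. The 2-cell markers summed to 3777 to 5316.4 at the 2-cell stage and to 4932.7 to 6924.9 at the 8-cell stage. The blastocyst markers summed to 2598.9 to 2982 at the 8-cell stage and to 8693.6 to 10036 in blastocysts. Each array's trimmed mean signal, over the middle 96% of values, lay between 149.959 and 149.969, so a level is relative to the array's whole signal. The number of arrays limits the precision.

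The sequence before each gene's start is shown as a description, and its part in the timing of the messengers was not tested. These are the 250 bases before a start of each gene in RefSeq (GRCm38.p6), 5′ to 3′ on the gene's strand, with CCAAT, in either orientation and so also as ATTGG, in capitals. Of 5 windows that RefSeq starts of these genes gave, the 3 shown held it and the other Tfrc and Fth1 windows did not, against 33.8% of 32851 windows of that length. The Tfrc window shown is chr16:32608646-32608895 (plus strand), that of Fth1 chr19:9982396-9982645 (plus strand) and that of Ftl1 chr7:45459887-45460136 (minus strand).
Tfrc: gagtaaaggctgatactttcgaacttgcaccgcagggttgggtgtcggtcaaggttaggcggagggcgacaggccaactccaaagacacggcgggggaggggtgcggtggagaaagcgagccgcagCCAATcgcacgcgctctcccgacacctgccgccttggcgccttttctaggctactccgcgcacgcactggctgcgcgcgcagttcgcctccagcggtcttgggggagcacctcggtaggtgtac
Fth1: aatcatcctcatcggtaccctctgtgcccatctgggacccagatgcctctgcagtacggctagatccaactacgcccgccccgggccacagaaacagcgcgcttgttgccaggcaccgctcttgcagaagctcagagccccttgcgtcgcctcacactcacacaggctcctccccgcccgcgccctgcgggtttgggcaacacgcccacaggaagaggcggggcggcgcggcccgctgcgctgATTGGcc
Ftl1: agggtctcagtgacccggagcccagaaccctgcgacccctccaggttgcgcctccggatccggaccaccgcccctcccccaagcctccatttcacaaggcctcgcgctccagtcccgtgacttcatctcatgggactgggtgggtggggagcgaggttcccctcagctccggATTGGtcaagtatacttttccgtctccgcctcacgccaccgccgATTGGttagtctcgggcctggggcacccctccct
The match lay at -124 to -120 from the start for Tfrc, at -7 to -3 for Fth1, and at -78 to -74 and -34 to -30 for Ftl1. These matches are letters in a window and not known sites.

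The transferrin receptor messenger was highest for a short time, at the 2-cell and 8-cell stages, and lower before and after. The brightest Tfrc probe set, 103958_g_at, had signals of 520.1, 429.5, 531.9 and 603.5 in oocytes and of 304.8, 553.9 and 564.9 in 1-cell embryos. It had 2877.7, 3729.3 and 4254.6 in 2-cell embryos and 1922.7, 1870.1, 2481.1 and 1955.2 in 8-cell embryos. In blastocysts it had 447.7, 382.3 and 391.1. The arrays of the 2-cell stage lay above every other array, those of the 8-cell stage lay above the remaining stages, and the arrays of oocytes, 1-cell embryos and blastocysts overlapped. Mean signals were 521 ± 71.4 (SD, n = 4), 475 ± 147 (n = 3), 3621 ± 695 (n = 3), 2057 ± 285 (n = 4) and 407 ± 35.5 (n = 3) from oocyte to blastocyst. In oocytes, 1-cell embryos and blastocysts 103958_g_at thus read 304.8 to 603.5, while every other Tfrc probe set stayed under 41.1. Whether the messenger was present at those stages is therefore not settled.

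On the scale of log2(signal + 11), which understates the change of dim probe sets, this Tfrc probe set was higher at the 2-cell than at the 1-cell stage by 2.94 ± 0.22 (SE), 7.63-fold by the mean signals. The 8-cell stage differed from the 2-cell stage by -0.80 ± 0.21 and the blastocyst from the 8-cell stage by -2.30 ± 0.21, the latter a 5.05-fold lower mean. Oocytes and 1-cell embryos differed by -0.17 ± 0.21, and blastocysts and oocytes by -0.34 ± 0.21. Without 1-cell array 1, the dimmest of its stage, the difference between 1-cell embryos and oocytes was 0.11, and that between 2-cell and 1-cell embryos 2.65. With arrays scaled on the hybridisation spikes, the difference of 1-cell embryos from oocytes was -1.28 and that of blastocysts from 8-cell embryos -1.12. These spiked-in control RNAs are controls of the hybridisation step, so the scaling does not correct for the RNA content of a sample.

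The control probe sets, which read the 3′ end, the middle and the 5′ end of the receptor's messenger, had the same shape. The 3′ probe set had 26.7, 22.8, 22.5 and 28.7 in oocytes, 30.4, 31.6 and 40.8 in 1-cell embryos, and 943.9, 998.3 and 1293 in 2-cell embryos. It had 349.1, 501.8, 644.9 and 620.4 in 8-cell embryos and 35.4, 35.7 and 25.9 in blastocysts. The low stages lay under the 41.1 level on every array. On the log2(signal + 11) scale the 2-cell stage was 4.58 ± 0.21 above the 1-cell stage, a size that depends on the offset because the 1-cell signal was so dim. The middle probe set read 1.4 to 2.4 in oocytes and 1.7 to 2.4 in 1-cell embryos, 68.4 to 101.7 in 2-cell embryos, 77.4 to 125.8 in 8-cell embryos and 0.9 to 3.9 in blastocysts. The 5′ probe set read 5 to 21.4 in oocytes, 5 to 24.4 in 1-cell embryos, 40.3 to 84.6 in 2-cell embryos, 31.6 to 105.6 in 8-cell embryos and 11 to 22.9 in blastocysts. For the middle and 5′ probe sets the 2-cell and 8-cell arrays overlapped, so only 103958_g_at and the 3′ probe set placed the 2-cell stage above the 8-cell stage.

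The second Tfrc probe set, 103957_at, was dim on all arrays. It read 2.9 to 11.9 in oocytes, 5.3 to 27.5 in 1-cell embryos, 31.8 to 46.4 in 2-cell embryos, 54.5 to 66.5 in 8-cell embryos and 1.5 to 9 in blastocysts. Its order differed from that of 103958_g_at, since its 8-cell arrays lay above its 2-cell arrays with no overlap. Over the 17 arrays, log2 signals of 103958_g_at correlated with those of the 3′, middle and 5′ controls and of 103957_at at 0.98, 0.93, 0.84 and 0.85, a description only, since arrays of a stage cluster.

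**Figure D1:**
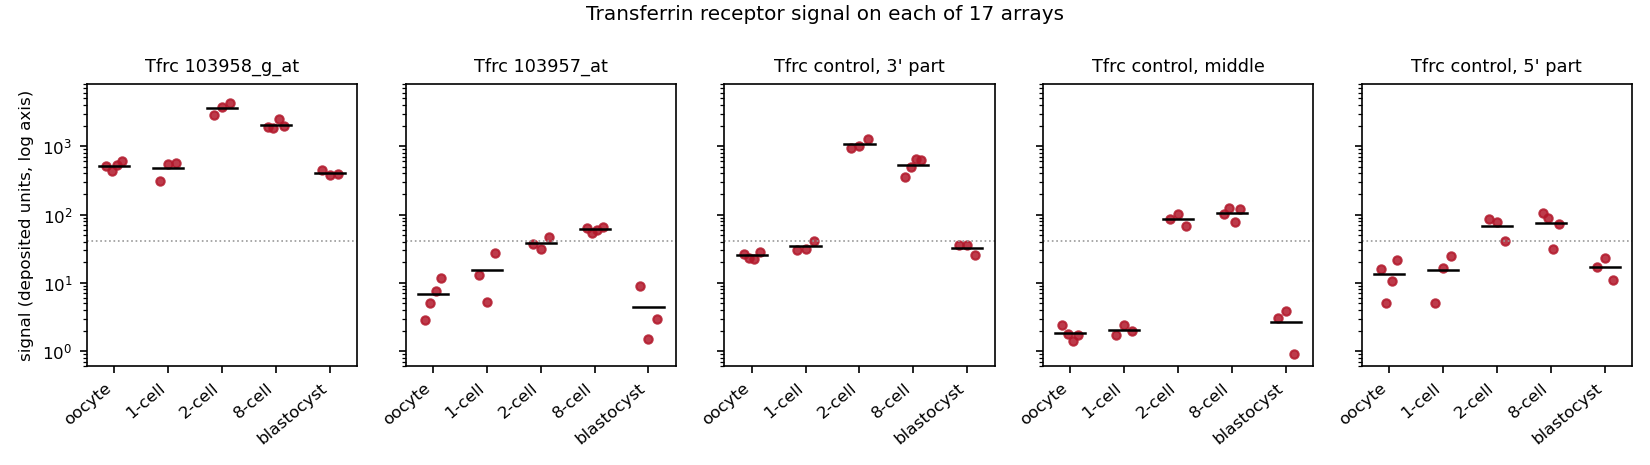
Signal of the 5 transferrin receptor probe sets on each of 17 arrays (points, log axis) by stage, with the stage mean as a bar and the 41.1 level dotted. In all 5 panels every 2-cell and 8-cell array lies above every array of the other stages, by the least for 103957_at (31.8 against 27.5).

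The 3′ to 5′ signal ratio is a common measure of how much of a messenger amplification reached. For Tfrc it was 11.2, 12.7 and 32.1 (lowest, median, highest) at the 2-cell stage and 3.31, 7.03 and 20.4 at the 8-cell stage, which overlapped. Ratios at the other stages rest on dim signals and are not read. For actin, Actb, the ratio was 3.15 to 4.95 at the 2-cell and 3.48 to 4.24 at the 8-cell stage, and 1.93 to 2.37 in blastocysts. For Gapdh it was 5.64 to 8.65 at the 2-cell and 1.18 to 3.26 at the 8-cell stage, and 5.27 to 7.52 in blastocysts, so that from the 8-cell stage to the blastocyst the ratio was lower for Actb and higher for Gapdh. Probe sets differ in affinity, so ratios compare arrays within a gene, and the part of RNA quality in the Tfrc differences was not tested.

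Markers of other cells were also higher on some arrays with high Tfrc. Of 10 blood markers, 5 were measured, and their summed signal was 430.8 to 508.5 at the 2-cell stage, 258.8 to 481.3 at the 8-cell stage and 181.4 to 316.9 at the 1-cell stage. The globin gene Hba-a1 read 165.6, 109.7 and 76.7 at the 2-cell stage and 52.5, 20.6 and 83.9 at the 1-cell stage, which overlapped. Lyz2 (58.9 to 79 against 1.6 to 2) and Cd14 (256.2 to 275.5 against 153.2 to 224.1) did not overlap. Another Lyz2 probe set (1.2 to 4.8 against 0.9 to 8.9) did, and Ptprc and Itgam stayed under 41.1 at both stages. The brighter Lyz2 probe set read 50.3 on 8-cell array 3, 1.6 to 6.1 on the other 8-cell arrays and 82.4 on blastocyst array 3. The 12 oviduct and uterus markers summed to 1692.7 to 2462 at the 2-cell stage against 733.5 to 956.9 at the 1-cell stage. At the 8-cell stage they summed to 749.2 to 8283.8. These markers did not move together. Ovgp1, Ltf, Cd24a, Foxj1, Wfdc2, Des and Vim had higher means at the 2-cell than at the 1-cell stage. Col1a1, Col1a2, Col3a1, Muc1 and Pgr had lower means. Ovgp1, the oviduct glycoprotein, read 28.8 to 56.4 at the 1-cell and 688.1 to 1271.8 at the 2-cell stage, higher at the same step as Tfrc. It read 6212.4 on 8-cell array 2 and 43.1 to 114.1 on the other 8-cell arrays. The member probe sets differed in the place of array 2 among the 8-cell arrays. Tfrc 103958_g_at (1870.1) and 103957_at (54.5) were lowest there. The middle Tfrc control (125.8), Ftl1 99872_s_at (2293.9) and Fth1 94794_at (1063.1) were highest. The 3′ control (501.8), the 5′ control (89.6) and Fth1 161913_r_at (2506.1) lay between. The part of blood, oviduct or uterus cells in the Tfrc and ferritin values was not tested.

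The ferritin light subunit messenger was lowest at the 1-cell stage and highest in blastocysts. Its probe set, 99872_s_at, is annotated to Ftl1 and to the pseudogene Ftl1-ps2, so the signal cannot be split between them. It had 180.2, 159.1, 147.4 and 163.3 in oocytes and 72.4, 126.1 and 125.7 in 1-cell embryos. It had 911.5, 871.6 and 768.6 in 2-cell embryos, 2182.7, 2293.9, 1839.1 and 1073.5 in 8-cell embryos, and 4251.5, 3746.5 and 2648.8 in blastocysts. No stage overlapped the next in the order of means, which ran from blastocyst through 8-cell, 2-cell and oocyte to 1-cell. Mean signals were 163 ± 13.6 (SD, n = 4), 108 ± 30.9 (n = 3), 851 ± 73.7 (n = 3), 1847 ± 551 (n = 4) and 3549 ± 819 (n = 3).

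The Ftl1 probe set differed by -0.58 ± 0.26 between 1-cell embryos and oocytes, and by 2.89 ± 0.28 between 2-cell and 1-cell embryos. It differed by 1.05 ± 0.26 from 2-cell to 8-cell embryos, which was 0.41 with arrays scaled on the spikes, and by 0.97 ± 0.26 from there to the blastocyst, which was 2.15 with that scaling. Blastocysts were 4.33 ± 0.26 above oocytes, 21.8-fold by mean signals. Tfrc and Ftl1 thus both had higher signals at the 2-cell than at the 1-cell stage, and from the 8-cell stage to the blastocyst Tfrc was lower and Ftl1 higher.

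The heavy subunit messenger was read by 2 probe sets that differed. For Fth1, 94794_at had 277.6, 270, 337.9 and 410.7 in oocytes, 270.2, 349.6 and 435.3 in 1-cell embryos, and 1493.5, 1273.6 and 991.7 in 2-cell embryos. It had 680.2, 1063.1, 887.5 and 888.8 in 8-cell embryos and 1612.7, 1153.2 and 1571.8 in blastocysts. Every array from the 2-cell stage on lay above every earlier array, by 1.81 ± 0.23 from the 1-cell to the 2-cell stage. Of the 3 later stages, the 2-cell arrays overlapped those of both others. Every blastocyst array lay above every 8-cell array, with a difference of 0.71 ± 0.22.

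The other Fth1 probe set, 161913_r_at, whose name marks a set chosen with some probe selection rules dropped, was brighter. It had 835.2, 1300.2, 1357.7 and 1255.8 in oocytes, 1550.5, 1426.3 and 1161.6 in 1-cell embryos, and 552, 1086.4 and 1148.6 in 2-cell embryos. It had 2147.1, 2506.1, 2714.6 and 2990.4 in 8-cell embryos and 1790.3, 2464 and 2900.6 in blastocysts. Here the 8-cell and blastocyst arrays overlapped and lay above all others. The oocyte arrays overlapped both other early stages, and the 1-cell arrays lay just above the 2-cell arrays (1161.6 against 1148.6). The 2-cell stage differed from the 1-cell stage by -0.63 ± 0.28, against 1.81 ± 0.23 for 94794_at, and the 8-cell from the 2-cell stage by 1.53 ± 0.26, against -0.50 ± 0.22. The sets correlated at 0.28 over the 17 arrays, and 94794_at correlated with the Ftl1 probe set at 0.89. Both placed blastocysts above oocytes, by 1.00 and 2.12. The stage at which Fth1 became higher is therefore not settled by these arrays.

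**Figure D2:**
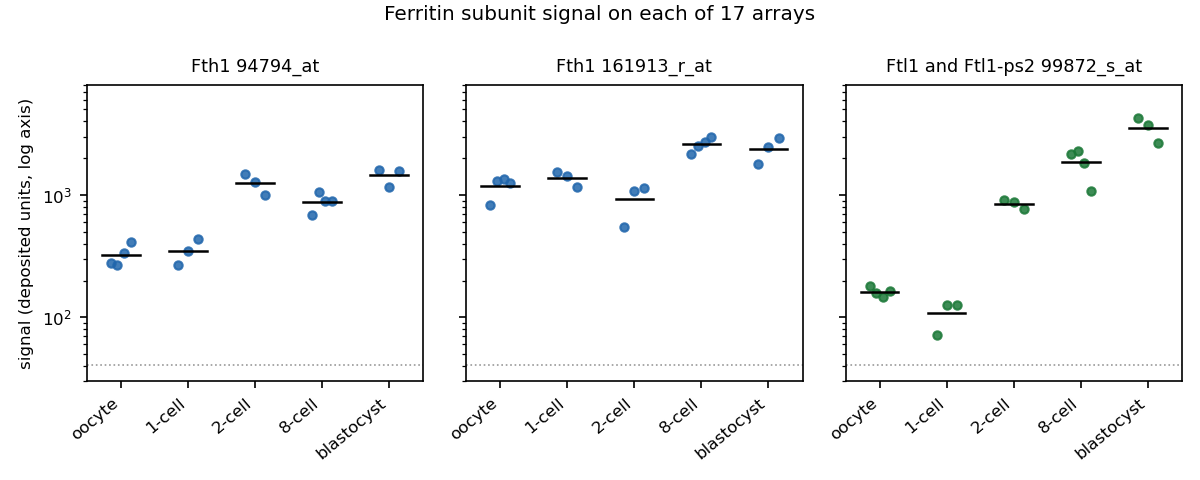
Signal of the 3 ferritin probe sets on each of 17 arrays (points, log axis) by stage, with the stage mean as a bar and the 41.1 level dotted. The Ftl1 means climb from 108 at the 1-cell stage to 3549 in blastocysts, while the Fth1 probe sets differ at the 2-cell stage, with means of 1253 and 929.

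**Figure D3:**
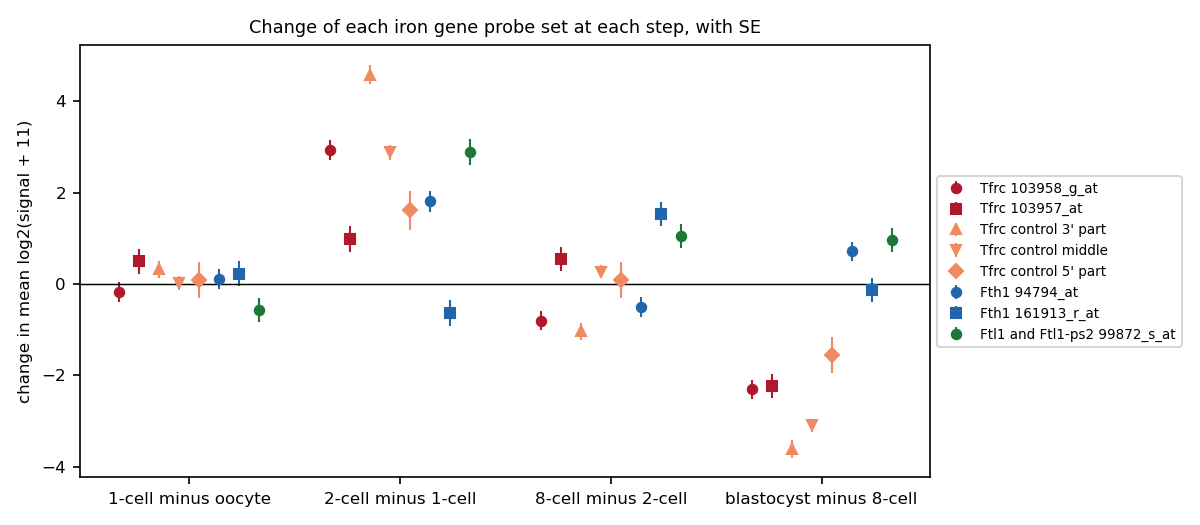
Difference in mean log2(signal + 11) of each member probe set at each of 4 consecutive steps, with its SE as a bar. From the 1-cell to the 2-cell stage 7 of 8 probe sets are above 0, and from the 8-cell stage to the blastocyst the 5 Tfrc probe sets are below 0 and the Ftl1 probe set above.

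The genes whose pattern over the 17 arrays was most like that of Tfrc 103958_g_at were Ifi35 (Pearson r = 0.97), Ficd (0.96), Bid (0.96), Dnajb9 (0.95) and Bex6 (0.95). Dnajb9, a chaperone of the endoplasmic reticulum, had mean signals of 53.6, 31.3, 1416, 795 and 72.0 from oocyte to blastocyst. For Ftl1 they were Gm2a (0.98), Cbfb (0.97), Map3k1 (0.97), Mir686 (0.97) and Isca2 (0.97). Isca2, which acts in iron-sulfur cluster assembly, had means of 8.68, 5.40, 163, 247 and 301. For Fth1 161913_r_at they were Trim28 (0.91), Usp48 (0.90), Mfsd1 (0.89), Sidt2 (0.89) and Aamp (0.88), and for 94794_at, added after its values were seen, Xpnpep1 (0.96), Tuft1 (0.94), Lyrm2 (0.94), Ist1 (0.94) and Plet1 (0.94). Points of a stage cluster, so these are descriptions over 17 arrays.

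Other iron genes were taken from a list of 103 genes in 8 roles, of which 64 had a probe set of their own and 54 passed the filter on dim signals. The 10 that did not pass included the second transferrin receptor Tfr2 (highest signal 34.9), the hemochromatosis gene Hfe (27.6), ceruloplasmin, Cp (12.7), hepcidin, Hamp (10.6) and the iron regulatory gene Aco1 (52.5). The role called iron sensing had 7 tested genes: Ireb2, Fbxl5, Cul1, Skp1, Hif1a, Epas1 and Zfp36. Calls below are at an adjusted p under 0.05 in limma with Benjamini-Hochberg adjustment. Genes named are the 3 largest called rises and falls of each comparison and every called gene of a set of pathway landmarks, whether or not the call held in other settings. Changes are log2 with SE.

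From oocyte to 1-cell embryo, 14 of 54 list genes rose, 11 fell and 29 were not called. That is 46.3% called against 38.8% of all 6044 genes, 25.9% higher against 18% and 20.4% lower against 20.8%, with a median change of 0.19 against 0.03. The largest rises were those of Ciao2b (1.39 ± 0.26), Zfp36 (1.38 ± 0.32) and Fdx1 (1.08 ± 0.21). The largest falls were those of Cisd1 (-2.95 ± 0.18), Isca1 (-2.87 ± 0.27) and Urod (-2.40 ± 0.24), although another Cisd1 probe set (-0.19) and another Urod probe set (0.25) were not called. Of the 4 storage and chaperone genes 3 rose: Ncoa4, the receptor that delivers ferritin to autophagy (1.08 ± 0.19), and the iron chaperones Pcbp2 (0.93 ± 0.22) and Pcbp1 (0.91 ± 0.18). The iron regulatory gene Ireb2 (0.67 ± 0.15), the cysteine desulfurase gene Nfs1 (0.89 ± 0.19), the heme oxygenase gene Hmox1 (0.56 ± 0.18) and Slc11a2, the iron transporter of endosomes (0.47 ± 0.18, limma adjusted p = 0.0416), were also called higher. Another Slc11a2 probe set was at -0.51, not called, and the mean over its probe sets was -0.02, so its direction is not settled. With arrays scaled on the spikes, all 8 rises named other than Ciao2b and Zfp36 turned negative, and no rise named here was called. Leaving out each array in turn ended the call of Hmox1 for 2 of 17 arrays and that of Slc11a2 for 6. Heme synthesis genes fell in 4 of 10 cases, among them Alad (-1.63 ± 0.21), and Hmox2 fell by 0.79 ± 0.22. The control probe sets for 18S ribosomal RNA were 4.94 (log2) higher in 1-cell embryos than in oocytes, against 1.44 to 1.79 in the later stages, and the spikes were 1.14 higher. The part of RNA content or amplification in the 1-cell changes was not tested.

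From the 1-cell to the 2-cell stage, where Tfrc and Ftl1 were higher, 8 list genes rose, 20 fell and 26 were not called. That is 51.9% called against 48.6% of all genes, 14.8% higher against 25.8% and 37.0% lower against 22.8%, with a median change of -0.37 against 0.04. Isca2 rose by 3.39 ± 0.23, the mitochondrial iron importer gene Slc25a28 by 2.87 ± 0.23 and lactotransferrin, Ltf, by 2.54 ± 0.91 (limma adjusted p = 0.0266). The Ltf call was lost without 1-cell array 1 (2.32), 1-cell array 2 (2.16) or 2-cell array 1 (2.29). Ltf is also one of the oviduct and uterus markers, and Ovgp1 was higher at the same step. The part of such cells in the Ltf change was not tested. Storage and chaperone genes fell in 3 of 4 cases, with Ncoa4 at -2.81 ± 0.20, Pcbp2 at -1.80 ± 0.24 and Pcbp1 at -0.56 ± 0.19. Fdx1 fell by 2.30 ± 0.22 and Hif1a by 2.29 ± 0.30. Of 7 iron-sensing genes 4 fell, with Ireb2 at -0.46 ± 0.16, while Slc11a2 fell by 0.49 ± 0.19, with another probe set at 0.27 and a mean over its probe sets of -0.11, neither called. Alas1, the first enzyme of heme synthesis, fell by 0.97 ± 0.19 and Nfs1 by 0.70 ± 0.20, and Urod rose by 0.95 ± 0.25, with another Urod probe set at -0.96 and a mean over both near 0. The spike scaling ended the calls of Alas1, Ireb2, Nfs1, Pcbp1 and Slc11a2 and left 18 list calls, 9 in each direction. Quantile normalization ended those of Pcbp1 (-0.19) and Ireb2 (-0.39). Leaving out single arrays also ended the calls of Ireb2 (without 1-cell array 1, 1-cell array 2 or 2-cell array 3, to -0.35), Pcbp1 (1-cell array 1 or 2-cell array 2, to -0.43) and Slc11a2 (4 of 17 arrays, to -0.39).

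From the 2-cell to the 8-cell stage, 15 list genes rose, 17 fell and 22 were not called, 59.3% called against 55.7% of all genes (27.8% higher against 26.1%, 31.5% lower against 29.6%), with a median change of 0.08 against -0.07. The heme and folate transporter gene Slc46a1 rose by 3.29 ± 0.23, from a mean signal of 3.23 to 130, Flvcr2 by 3.04 ± 0.26 and Nubp1 by 2.69 ± 0.23. The metal transporter gene Slc39a8 fell by 3.06 ± 0.30, Bmp6, a growth factor that induces hepcidin, by 2.95 ± 0.21 and Hif1a by 2.54 ± 0.28. Of 7 iron-sensing genes 5 fell, among them Ireb2 (-1.83 ± 0.15) and Fbxl5, which targets the iron regulatory proteins for degradation (-1.02 ± 0.26). Pcbp1 (0.75 ± 0.18), Alad (0.77 ± 0.21), Urod (0.75 ± 0.24) and Slc11a2 (0.74 ± 0.18) rose. These 4 calls were lost with the spike scaling, and that of Pcbp1 (0.17) also with quantile normalization. Another Slc11a2 probe set rose by 2.69, and another Urod probe set was at 0.45, not called. Nfs1 fell by 0.73 ± 0.19. The falls of Iscu (-0.63 ± 0.26, limma adjusted p = 0.0485) and Ltf (-2.06 ± 0.85, limma adjusted p = 0.0465) were called. These calls were lost on leaving out 12 and 15 of the 17 arrays in turn, with changes of -0.85 to -0.44 and -3.41 to -1.54. Many of those arrays were of other stages, without which the changes stayed at -0.63 and -2.06 and only the adjusted p passed 0.05. For Ltf, 8-cell array 2 read 827.7 and the other 8-cell arrays 6 to 11.4, and Ovgp1 was likewise highest on that array.

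From the 8-cell stage to the blastocyst, where Tfrc was lower and Ftl1 higher, 16 list genes rose, 11 fell and 27 were not called, 50% called against 43.6% of all genes (29.6% higher against 23%, 20.4% lower against 20.7%), with a median change of 0.05 against -0.07. The heme exporter gene Abcg2 rose by 2.94 ± 0.33, Hif1a by 2.36 ± 0.28 and the heme-binding protein gene Hebp1 by 2.02 ± 0.38. Flvcr2 fell by 1.91 ± 0.26, Clpx by 1.17 ± 0.40 and Slc11a2 by 1.13 ± 0.18. Iron-sulfur assembly genes rose in 6 of 13 cases and fell in 1. Alad (1.33 ± 0.21), Alas1 (0.76 ± 0.18), Nfs1 (0.61 ± 0.19) and Pcbp2 (0.59 ± 0.22) rose, and Urod (-0.76 ± 0.24), Fbxl5 (-0.70 ± 0.26) and Pcbp1 (-0.60 ± 0.18) fell. With the spike scaling the falls of Urod, Fbxl5 and Pcbp1 turned positive and none of the 5 falls named other than Flvcr2 was called. The calls of Clpx, Fbxl5 and Pcbp2 were each lost on leaving out 3 of the 17 arrays in turn, and that of Pcbp1 without blastocyst array 2 (-0.45). Quantile normalization ended the calls of Pcbp1 (-0.19), Fbxl5 (-0.56) and Pcbp2 (0.52). Another Urod probe set was at -0.10, and the mean over its probe sets, -0.43, was not called.

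Between blastocyst and oocyte, 18 list genes were higher, 24 lower and 12 not called, 77.8% called against 66.1% of all genes (33.3% higher against 32.3%, 44.4% lower against 33.8%), with a median difference of -0.33 against -0.09. Isca2 (3.96 ± 0.22), Flvcr2 (3.60 ± 0.26) and Slc46a1 (3.52 ± 0.23) were the furthest above, and Bmp6 (-5.37 ± 0.21), Slc39a8 (-2.86 ± 0.30) and Cul1 (-2.55 ± 0.18) the furthest below. Iron-sensing genes were lower in 5 of 7 cases, with Fbxl5 at -1.66 ± 0.26 and Ireb2 at -1.53 ± 0.15. Urod (-1.45 ± 0.24), Ncoa4 (-1.30 ± 0.19) and Iscu (-1.18 ± 0.26) were lower, and Alad (0.81 ± 0.21) and Alas1 (0.56 ± 0.18) higher. The calls of Alad (0.46) and Alas1 (0.21) were lost with the spike scaling, as was that of Pcbp1 (0.14). Another Urod probe set was at -0.36, not called. Pcbp2 (-0.56 ± 0.22), Pcbp1 (0.50 ± 0.18) and Slc11a2 (-0.41 ± 0.18) were called, but lost the call on leaving out 4, 2 and 10 of the 17 arrays in turn. Some of those 10 arrays were of other stages, without which the Slc11a2 change stayed at -0.41. For Slc11a2 another probe set was called higher (1.45, limma adjusted p = 7.08e-05), and the mean over its probe sets was 0.52, the other direction.

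**Figure D4:**
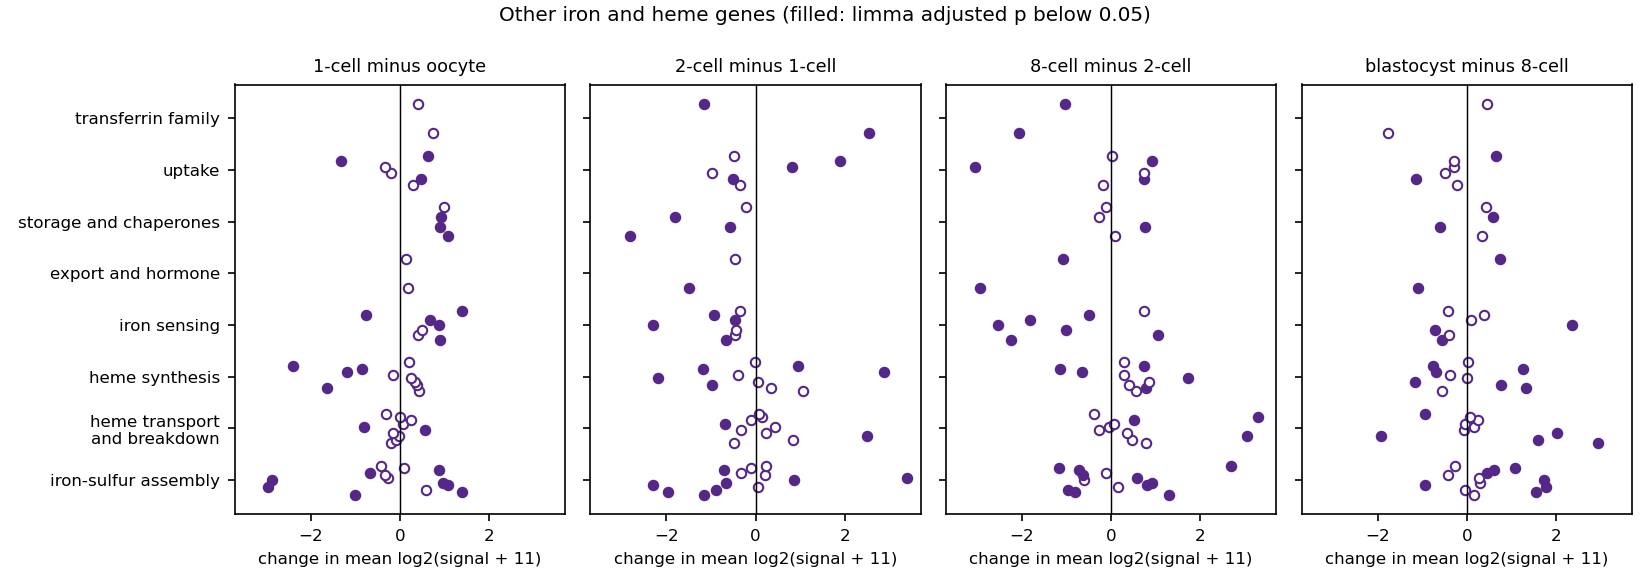
Change of each of the 54 tested iron and heme genes in mean log2(signal + 11) at each of 4 consecutive steps, by role, with calls at a limma adjusted p below 0.05 filled. From the 1-cell to the 2-cell stage 20 points are called below 0 and 8 above.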

How the data were processed

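RNA from 17 samples was amplified and hybridised to 1 array each, per the labels. The authors deposited 1 signal intensity per probe set and array on a linear scale. The software, its version and the background correction are not given in the sources used here. Signals were taken to log2 after adding 11. Probe sets above 41.1 on at least 3 arrays were tested (8067, controls left out), and 1 probe set, the brightest, stood for a gene (6044). A mean per stage was fitted over 17 arrays with limma 3.58.1 in R 4.3.3 (lmFit, eBayes with trend, 12 residual degrees of freedom), with two-sided tests adjusted by Benjamini-Hochberg within a comparison. Of 12488 probe sets, 10855 had 1 symbol, 396 several and 1237 none. Symbols of 10839 were updated. The fit was tested on simulated data. Members, lists and the rule for named genes (members, the 5 genes most like each, the 6 largest called rises and falls, landmarks and markers) were chosen with earlier results of these data known. The text names the 3 largest and all called landmarks. Alternatives covered scaling, offset, filter, trend, weights, replicate block, probe sets and leaving out each array.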

Additional observations from a re-analysis of the deposited data

Results flagged for a closer look

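Tfrc 103958_g_at on 8-cell array 3 had a signal of 2481.1, set apart from the other 8-cell arrays (1870.1 to 1955.2) by 0.861 of the range of the 4 arrays. Of 16 groups of 4 arrays examined in this way, 1 stood out, and chance sets apart about 1 in 20.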

How the results depend on the processing

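For the 3 member genes at the 5 comparisons, 351 of 375 values under alternatives moved by less than the spread between arrays. Many of the 375 came from leaving out an array of a stage outside the comparison, which cannot move the difference. The share that stayed is therefore high in part by design. The sign turned in 8 of the 375, in 4 comparisons: Fth1 at 1-cell minus oocyte, 2-cell minus 1-cell and blastocyst minus 8-cell, and Tfrc at 1-cell minus oocyte. In 1 of these, Fth1 at 2-cell minus 1-cell, the first value was larger than that spread. Scaling on the spikes moved the median of all probe sets from 0.04 to -0.89 (1-cell minus oocyte), from 0.06 to 0.22, from -0.06 to -0.58, from -0.09 to 0.89 and from -0.07 to -0.42 (blastocyst minus oocyte). With it, Tfrc gave -1.28 (1-cell minus oocyte), -1.45 (8-cell minus 2-cell), -1.12 (blastocyst minus 8-cell) and -0.70 (blastocyst minus oocyte). In the same order Fth1 gave -0.90, 0.88, 1.05 and 0.64, and Ftl1 -1.61, 0.41 and 2.15 in the first 3. The dimmer probe sets differed: Fth1 94794_at gave -0.99, -1.14, 1.89 and 1.78, and Tfrc 103957_at 0.036, 0.027, -1.48 and -0.39. The 1-cell minus oocyte calls over all probe sets went from 2994 to 4890 (28 higher, 4862 lower), and the 2-cell minus 1-cell list calls from 28 to 18. Quantile normalization gave Tfrc 3.32 (2-cell minus 1-cell) and -1.35 (8-cell minus 2-cell), median centring 2.66 for the first, and an offset of 50 Ftl1 2.53. The stricter filter left 26 of 33 list genes called (blastocyst minus oocyte, 42 before). The mean over probe sets gave Tfrc 0.16, 1.96 and -0.13 at the first 3 steps, and Fth1 0.59 at the 2-cell step, the reverse of -0.63, then 0.51, 0.29 and 1.56 (blastocyst minus oocyte). Without single arrays Tfrc ran from -0.32 to 0.11 (1-cell minus oocyte) and from 2.65 to 3.09 (2-cell minus 1-cell). The cause was not tested.

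The 94 calls under the naming rule, of 40 list genes over 5 comparisons, gave 2547 values that kept their call, 141 that lost it and 16 that reversed. Reversed with the spikes at 1-cell minus oocyte were Fdx1 (-0.050), Ncoa4 (-0.047), Hspa9 (-0.17), Pcbp2 (-0.19), Hmox1 (-0.52), Ireb2 (-0.44), Nfs1 (-0.21), Pcbp1 (-0.22) and Slc11a2 (-0.61), and at blastocyst minus 8-cell Fdx1 (0.25), Urod (0.31), Fbxl5 (0.078) and Pcbp1 (0.59). Reversed with the mean over probe sets were Slc11a2 at 1-cell minus oocyte (-0.022) and blastocyst minus oocyte (0.52), and Urod at 2-cell minus 1-cell (-0.00066). With the replicate block, list calls were 24, 28, 30, 24 and 40, against 25, 28, 32, 27 and 42. With the stage means removed, what was left on same-numbered arrays of 2 compared stages correlated at -0.03 to 0.13, with 2 of 15 above 0.1. The numbers were therefore not taken to pair samples.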
